A study of Mus musculus with 12 samples.

Results

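The 49 genes described here carry the cell division cycle: the D-type and E-type cyclins and their kinases with MYC, inhibitors of cyclin-dependent kinases, E2F transcription factors, the proteins that license and fire replication origins, the enzymes that supply deoxynucleotides, and the kinases, checkpoint proteins and spindle proteins of mitosis. They were listed by symbol from their textbook roles, with earlier results of these data known. Of the 49, 47 were among the 12850 genes with values and 37 passed the filter on low values that left 11885 genes for testing, namely a level of 1 CPM (a read count scaled to the library's size) or more in 2 or more of the libraries. Cenpf and Ube2c were not analysed here. RNA-seq was carried out on peritoneal exudate cells (PECs), the leukocytes that gather in the peritoneal cavity after an irritant, from C57BL/6 mice that were wild type (WT) or homozygous for a knock-in allele, Zc3h12a S513A/S513A (called S513A below). The mice had received 2 ml of 4% Brewer's thioglycollate medium in the peritoneum 3.5 days before the cells were collected. The cells were cultured without lipopolysaccharide (LPS), the cell wall component of Gram-negative bacteria that activates TLR4, or with 100 ng/ml of it for 4 or 8 hr. This gave 6 groups of 2 libraries: WT at 0, 4 and 8 hr, and S513A at 0, 4 and 8 hr.

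Zc3h12a encodes Regnase-1, an RNase that degrades mRNAs of inflammatory genes, and the allele replaces a serine whose phosphorylation recruits 14-3-3 proteins. It was made with CRISPR/Cas9 and is carried by every cell of the animal, so that all exudate cells and not macrophages alone hold it. A gene-level read count does not check this amino acid change. The labels do not say whether the libraries of a group came from separate mice or cultures, so that the p-values below measure the spread between these libraries, which may be technical. In bulk RNA, fewer cells of a type and less RNA per cell cannot be told apart.

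A cell enters the cycle when D-type cyclins, with CDK4 or CDK6, and cyclin E, with CDK2, phosphorylate the retinoblastoma protein and release E2F factors, which switch on genes for DNA replication. MCM helicase rings are loaded on origins by CDC6 and CDT1, the DNA is copied, and cyclin B with CDK1 then drives mitosis, during which the spindle checkpoint holds back the separation of chromosomes. Elicited peritoneal macrophages are largely non-dividing cells that derive from blood monocytes. LPS is known as a stop signal for macrophage proliferation, and it induces the CDK inhibitor p21 as well as the cyclin D2 gene.

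The libraries held 9525979 to 12439960 reads on genes, with a median of 11137241, and 3 reads corresponded to -2.04 to -1.30 log2 CPM. All 8 macrophage markers were present, at a summed 16800 to 27800 CPM in every library, against 491 to 829 CPM for the 4 of 10 neutrophil markers with values. Lyz2 made up most of the macrophage sum (13.14 to 14.35 log2 CPM). At 8 hr Adgre1, Csf1r, Fcgr1 and Cd14 were higher than at 0 hr, and Cd68 and Itgam were lower. Lyz2 and Mertk overlapped over both genotypes. Mmp8 made up most of that neutrophil sum and was lower at 8 hr (9.29 to 9.50 log2 CPM at 0 hr, then 8.36 to 8.94). Camp (-4.84 to -1.53, then 0.82 to 1.80) and Csf3r (6.09 to 6.38, then 6.74 to 7.00) were higher at 8 hr. S100a8 was higher at 8 hr in WT and overlapped with 0 hr in S513A. None of 6 erythroid markers was among the genes with values, and of 4 early myeloid progenitor markers Prtn3 alone was, at 0.731 CPM or less. The 7 B cell markers with values summed to 12.9 to 20.9 CPM at 0 hr, 24.0 to 28.5 CPM at 4 hr and 17.2 to 32.9 CPM at 8 hr. The 5 resident peritoneal macrophage markers summed to 53.4 to 96.6 CPM at 0 hr, 86.0 to 223 CPM at 4 hr and 128 to 152 CPM at 8 hr. They did not move together: within each genotype Prg4 and Timd4 were higher in every library with LPS than in those without (Timd4 at 2.73 to 3.49 log2 CPM at 0 hr and 4.24 to 5.27 at 8 hr), while Gata6 was lower at 8 hr (1.31 to 2.36, then -0.70 to 0.82), as was F5, and Icam2 overlapped. The eosinophil markers with values, 2 of 4, summed to 15.3 to 18.5 CPM at 0 hr, 8.02 to 10.0 CPM at 4 hr and 3.62 to 4.58 CPM at 8 hr. Mast cell, T cell and mesothelial markers (4 of 5, 3 of 8 and 5 of 7 with values) summed to 0.871 to 4.22 CPM. The part of these cells in the results below was not tested. Replicates of a group differed most at 4 hr in WT, where the SD of the log2 difference between libraries was 0.401 over 8353 genes, then at 8 hr in S513A (0.341) and 4 hr in S513A (0.287), against 0.162 to 0.216 in the other 3 groups. All libraries gave 19 cell cycle genes called at 4 hr against 0 hr in WT and 16 at 8 hr against 0 hr in S513A. Leaving out WT 4 hr replicate 2 and S513A 8 hr replicate 1 together lowered the first count and raised the second. The counts over all genes moved the opposite way, up in the first comparison and down in the second.

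LPS did not move the cell cycle genes in 1 direction. After 4 hr, the proliferation antigen gene Mki67, the D-type cyclin gene Ccnd2, Ccne1, Cdkn1a, E2f8, Mcm5, Tyms and Bub1b rose in both genotypes, while E2f1, E2f2, Cdt1, Mcm2, Mcm7, Rrm1, Cdk1, Cdk4 and Cdkn1b fell in both. Tests were made with limma on the log2 CPM values, two-sided, and a gene was called at a Benjamini-Hochberg adjusted p under 0.05 over the 11885 genes. In WT, 8 of 37 (21.6%) were called higher and 11 (29.7%) lower at 4 hr, against 22.6% higher and 18.7% lower of all tested genes. In S513A the counts were again 8 and 11, against 23.1% and 20.2% of all genes. The share called higher was close to that of all genes, and the share called lower was above it, a difference that was not tested. The median log2 change at 4 hr over the 37 genes was -0.25 in both WT and S513A, against 0.04 and -0.00 over all genes. At 4 hr, 8 genes (21.6%) were called higher in both genotypes, 9 (24.3%) lower in both and 0 in opposite ways, against 20.3% higher in both and 16% lower in both over all genes. Cdkn2c and Mcm3 passed in WT alone, and Ccnd1 and Rrm2 in S513A alone, which does not show that the genotypes differed for them.

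After 8 hr the list was again divided. In WT 7 genes were called higher and 9 lower than at 0 hr, against 19.4% and 14.9% of all genes. In S513A 6 were higher and 10 lower, against 20.9% and 19% of all genes. Ccnd2, Ccnd3, Ccne1, Cdkn1a and Mki67 were higher in both genotypes, and Myc, Cdkn2c, E2f2, Mcm2 and Rrm1 were lower in both, against 13.6% of all genes higher in both and 9.9% lower in both. The median change at 8 hr was -0.06 in WT and -0.27 in S513A. The WT count fell from 16 to 6 without WT 0 hr replicate 1, 10 without WT 0 hr replicate 2, 9 without WT 8 hr replicate 1 and 7 without WT 8 hr replicate 2. The count over all genes fell as well, from 4079 to 2659, 2776, 2848 and 2489 in the same order.

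Between 4 and 8 hr, E2f1 and Mcm2 rose again in both genotypes, and Ccnd2, Cdkn1a and Bub1b came down from their 4 hr level in both. In WT 3 genes were called higher and 4 lower at 8 hr than at 4 hr, against 6.73% and 7.49% of all genes. In S513A 3 were higher and 6 lower, against 9.31% and 8.99%. Leaving out WT 8 hr replicate 1 lowered the WT count, and leaving out S513A 4 hr replicate 2 lowered the S513A count. The counts over all genes fell as well in both cases. The comparisons of 4 and 8 hr within a genotype share the 0 hr libraries.

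**Figure D1:**
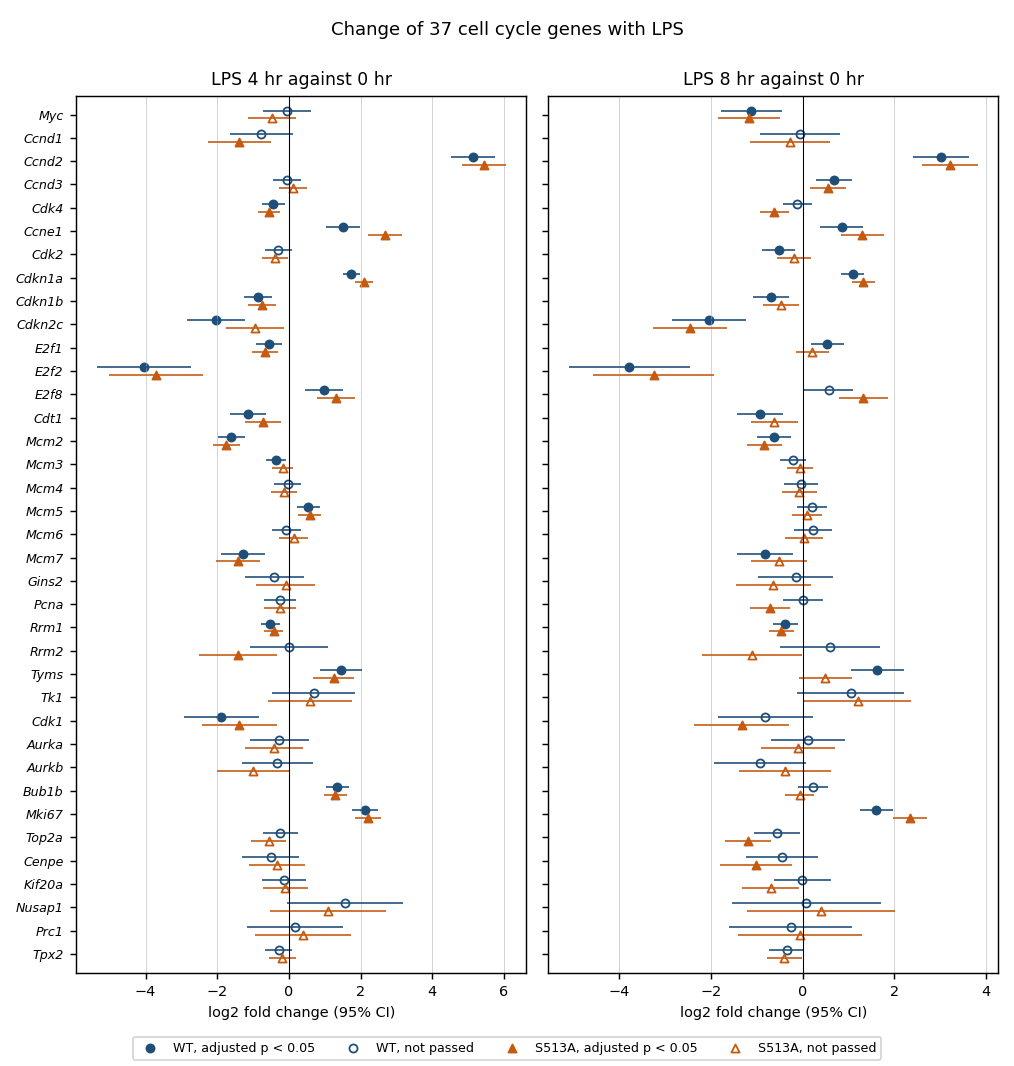
Log2 fold changes of the 37 tested cell cycle genes (y axis, ordered by role) at 4 and 8 hr of LPS against 0 hr, with 95% confidence intervals from limma; blue circles are WT, orange triangles S513A, and filled symbols passed an adjusted p of 0.05. Ccnd2 lies farthest to the right at 4 hr (5.14 in WT and 5.44 in S513A) and E2f2 farthest to the left (-4.05 and -3.71).

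For 5 genes that the results turn on, 3 that rose at 4 hr and 2 that fell, the 250 bases upstream of the RefSeq transcript start (GRCm38.p6) are shown 5′ to 3′ on the gene's strand, to place genes of opposite response side by side. Capitals mark matches, on either strand, to the E2F letters TTTCCCGC, TTTGGCGC, TTTCGCGC or TTTGCCGC and to the letters TTTGAA or TTCGAA of the cell cycle homology region (CHR), the element through which many mitotic genes are held silent in resting cells. The windows are chr7:135716380-135716629 (minus strand) for Mki67, chr2:118597961-118598210 (plus) for Bub1b, chr8:75109259-75109508 (plus) for Mcm5, chr10:69352913-69353162 (minus) for Cdk1 and chr6:88898781-88899030 (minus) for Mcm2.
Mki67: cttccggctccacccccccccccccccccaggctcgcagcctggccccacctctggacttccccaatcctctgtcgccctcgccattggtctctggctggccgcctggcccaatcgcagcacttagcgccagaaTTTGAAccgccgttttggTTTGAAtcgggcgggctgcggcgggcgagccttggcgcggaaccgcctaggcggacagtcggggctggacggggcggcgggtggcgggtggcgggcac
Bub1b: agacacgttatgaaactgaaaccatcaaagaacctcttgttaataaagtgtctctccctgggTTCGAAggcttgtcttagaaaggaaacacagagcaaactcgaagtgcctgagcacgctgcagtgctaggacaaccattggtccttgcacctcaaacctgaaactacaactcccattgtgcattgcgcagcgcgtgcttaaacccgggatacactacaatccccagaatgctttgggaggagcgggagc
Mcm5: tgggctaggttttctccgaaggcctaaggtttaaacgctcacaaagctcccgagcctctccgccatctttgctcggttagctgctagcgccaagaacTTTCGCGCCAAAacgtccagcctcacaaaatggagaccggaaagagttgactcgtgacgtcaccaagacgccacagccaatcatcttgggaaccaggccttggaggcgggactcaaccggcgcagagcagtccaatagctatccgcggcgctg
Cdk1: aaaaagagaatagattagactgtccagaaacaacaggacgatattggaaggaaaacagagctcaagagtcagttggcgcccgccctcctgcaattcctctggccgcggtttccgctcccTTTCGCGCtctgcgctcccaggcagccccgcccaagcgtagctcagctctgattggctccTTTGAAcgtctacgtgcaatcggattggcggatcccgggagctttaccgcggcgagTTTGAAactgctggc
Mcm2: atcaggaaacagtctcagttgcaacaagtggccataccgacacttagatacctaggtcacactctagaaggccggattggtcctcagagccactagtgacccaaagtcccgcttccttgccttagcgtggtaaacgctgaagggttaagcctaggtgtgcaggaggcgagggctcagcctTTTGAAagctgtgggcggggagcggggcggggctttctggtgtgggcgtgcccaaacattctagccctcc
Mki67 and Bub1b, which rose, and Cdk1 and Mcm2, which fell, all held CHR letters, and E2F letters stood upstream of Mcm5, which rose, as well as of Cdk1. The capitals of Mcm5 are a pair of E2F matches that overlap. RefSeq windows of 300 bases, 250 before the start and 50 after it, were found for 37 of the 47 genes with values. E2F letters were in 9 of the 37 (24.3%), against 4.26% of 9345 tested genes with a window and 2.33% of 27025 windows in all. At 4 hr, E2f2, Cdt1, Mcm7 and Cdk1 of these were called lower in both genotypes and Mcm3 in WT alone, while Mcm5 was called higher. Cdk2 and Mcm6 did not pass at 4 hr, and Cdc6 was below the filter. CHR letters were in 14 (37.8%), against 13.7% of tested genes and 19.5% of all windows. Of these, E2f8, Bub1b and Mki67 were called higher in both genotypes at 4 hr, and Mcm2, Mcm7 and Cdk1 lower in both. The rest did not pass at 4 hr or were below the filter. A link of the letters to the direction of change was not tested. Genes without either kind of letters also went both ways at 4 hr. Among them were Ccne1, Cdkn1a and Tyms, which rose, and Rrm1, E2f1, Cdk4 and Cdkn1b, which fell. The CCAAT box letters were in 25 (67.6%), against 38.9% and 38%. The NF-kB motif was in 3 (8.11%), against 10.1% and 8.19%. Such matches describe letters and not binding.

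Among the listed genes that open the cycle, the largest changes were those of cyclins D2 and E1. Ccnd2 (Entrez 12444), a D-type cyclin that activates CDK4 and CDK6, stood at -0.32 and 0.05 log2 CPM in WT without LPS, rose to 4.94 and 5.07 with 4 hr of LPS and was at 2.97 and 2.79 after 8 hr. For S513A the same times gave 0.01 and -0.87, then 5.14 and 4.87, then 2.95 and 2.61. Every library at 4 hr was above every library at 8 hr, and these above every library at 0 hr. The log2 change at 4 hr was 5.14 ± 0.28 (SE) in WT (35.2-fold, adjusted p = 1.54e-07) and 5.44 ± 0.28 in S513A (43.4-fold, adjusted p = 9.53e-08). The 8 hr changes were 3.01 (WT) and 3.21 (S513A), so that the gene was 4.36-fold lower than at 4 hr in WT and 4.69-fold lower in S513A. At 0 hr the gene had 6 to 13 reads per library.

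Counted per kb of transcript, Ccnd3 was the most abundant of the 3 D-type cyclin transcripts in every library. Ccnd2 made up 0.781 to 1.92% of the 3 at 0 hr, 32.3 to 37.6% at 4 hr and 6.53 to 7.92% at 8 hr. Ccnd3 itself rose by 0.68 on the log2 scale in WT and 0.55 in S513A by 8 hr (adjusted p = 0.013 and 0.0311). Ccnd1, which is also known to answer growth factors, was called lower at 4 hr in S513A, with a log2 change of -1.38 ± 0.39 (adjusted p = 0.016), and not in WT, where the change was -0.77 (adjusted p = 0.145). Its S513A libraries were at 2.15 and 2.29 log2 CPM at 0 hr and at 1.54 and 0.14 at 4 hr, so that replicate 2 of S513A at 4 hr was the lowest by far. The exons of Ccnd1 overlap those of LTO1 over 23.4% of their length, and the library kit as counted does not tell the strands apart.

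**Figure D2:**
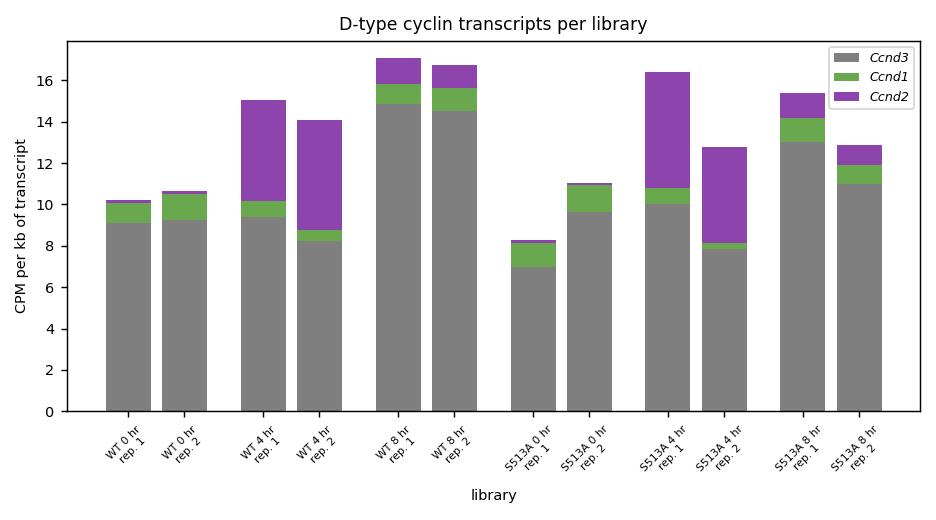
Transcripts of the 3 D-type cyclins in each of the 12 libraries, as CPM per kb of the principal transcript (y axis), stacked; grey is Ccnd3, green Ccnd1 and purple Ccnd2. The purple segment makes up 32.3 to 37.6% of the bar in the 4 libraries at 4 hr and at most 1.92% in those at 0 hr.

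Ccne1 (Entrez 12447), the cyclin that activates CDK2 at the entry to S phase, stood at 1.04 and 1.13 log2 CPM in WT without LPS, 2.63 and 2.55 with LPS for 4 hr and 1.79 and 2.09 for 8 hr. In S513A its values were 0.70 and 0.28, then 3.20 and 3.13, then 1.73 and 1.86. All libraries with LPS were above all libraries without it. At 4 hr the log2 change came to 1.50 ± 0.21 in WT (adjusted p = 0.000212) and 2.68 ± 0.21 in S513A (adjusted p = 2.68e-06). By 8 hr the change was 0.85 in WT (adjusted p = 0.00982) and 1.30 in S513A (adjusted p = 0.000682). The WT call at 8 hr was lost without WT 0 hr replicate 1 or WT 8 hr replicate 2 (adjusted p = 0.0606 and 0.0899).

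Myc, a transcription factor that drives growth and S phase entry, had 3.52 and 3.33 log2 CPM in WT at 0 hr, 2.96 and 3.77 with 4 hr of LPS, then 2.37 and 2.24 with 8 hr. In S513A the values were 3.24 and 3.13, then 2.93 and 2.49, then 2.41 and 1.63. The 4 hr libraries of WT lay on both sides of those at 0 hr, and the 8 hr libraries were the lowest of each genotype. Myc fell by 1.12 on the log2 scale in WT and by 1.17 in S513A at 8 hr (adjusted p = 0.0151 and 0.0108). Leaving out 1 library ended the WT call in 3 cases (without either library of WT at 8 hr or WT 0 hr replicate 1, adjusted p = 0.0549 to 0.0921) and the S513A call in 2 (without S513A 0 hr replicate 1 or S513A 8 hr replicate 2, adjusted p = 0.0658 and 0.0732). Of the catalytic partners in the list, Cdk4 fell by 0.44 and 0.55 on the log2 scale at 4 hr in WT and S513A. Its exons overlap those of Tspan31, on the opposite strand, over 19.7% of their length. Cdk4 was also called lower at 8 hr in S513A (6.73 and 6.82 log2 CPM at 0 hr, then 6.02 and 6.31). Cdk2 passed only at 8 hr in WT, with a change of -0.52. Cdk6, which is outside the list, was called higher at 4 hr in both genotypes and at 8 hr in S513A.

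The 3 inhibitors of cyclin-dependent kinases went in different directions. Cdkn1a (Entrez 12575), which encodes p21, had 6.62 and 6.70 log2 CPM in WT at 0 hr, 8.40 and 8.41 after 4 hr of LPS, and 7.63 and 7.88 after 8 hr. S513A gave 6.41 and 6.59, 8.61 and 8.60, and 7.76 and 7.88. No library with LPS overlapped those without, and the 4 hr libraries were the highest. By 4 hr the log2 change was 1.74 ± 0.11 in WT (3.35-fold, adjusted p = 6.16e-07) and 2.10 ± 0.11 in S513A (4.30-fold, adjusted p = 1.42e-07). It was 1.09 and 1.32 at 8 hr (adjusted p = 2.70e-05 and 6.11e-06). The WT call on the fall from 4 to 8 hr was lost without WT 8 hr replicate 1 (-0.52, adjusted p = 0.0575) or in a model of only the libraries compared (-0.65, adjusted p = 0.0623).

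Cdkn1b, which encodes p27, a marker of quiescence, was at 4.65 and 4.54 log2 CPM in WT without LPS, 3.65 and 3.80 with LPS for 4 hr and 4.14 and 3.68 for 8 hr. The S513A libraries gave 4.45 and 4.54, 3.89 and 3.60, and 4.18 and 3.86. In each genotype both 0 hr libraries were above the LPS libraries. It fell by 0.87 on the log2 scale in WT and by 0.75 in S513A at 4 hr (adjusted p = 0.0027 and 0.00612), the latter call being lost without S513A 4 hr replicate 2 (adjusted p = 0.0533). At 8 hr WT passed (-0.68, adjusted p = 0.0129), though not without WT 0 hr replicate 1 or WT 8 hr replicate 2 (adjusted p = 0.0826 and 0.135), and S513A did not (-0.47, adjusted p = 0.0556, or 0.0498 in a model of only the libraries compared).

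Cdkn2c, which encodes the CDK4 and CDK6 inhibitor p18, was at 1.79 and 1.49 log2 CPM in WT at 0 hr, -0.26 and -0.54 with 4 hr of LPS, then -0.31 and -0.48 with 8 hr. Its values in S513A were 1.32 and 1.36, 0.05 and 0.75, and -0.83 and -1.40. The libraries without LPS were above all others. The log2 change in WT was -2.04 ± 0.37 at 4 hr (adjusted p = 0.00117) and -2.03 at 8 hr (adjusted p = 0.00149). In S513A the change did not pass at 4 hr (-0.94, adjusted p = 0.0602). At 8 hr in S513A the gene had 9 reads over both libraries against 58 at 0 hr, a ratio of 5.76 with a 95% counting interval of 2.83 to 13.2 (adjusted p = 0.000389).

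The 3 E2F factors also parted. E2f2 (Entrez 242705), an activator, was at 1.98 and 1.93 log2 CPM in WT at 0 hr, -1.34 and -2.86 after 4 hr of LPS, and -1.59 and -2.07 after 8 hr. In S513A the levels were 1.22 and 1.65, -2.02 and -2.52, and -2.21 and -1.40. All 8 libraries with LPS held 1 to 4 reads, against 26 to 56 in the 4 without. In WT 105 reads over both libraries at 0 hr became 5 at 4 hr, which after scaling is 17.1-fold fewer with a 95% counting interval of 7.09 to 53.7. In S513A 63 reads became 3, which is 16.9-fold fewer (5.53 to 84.2). At 8 hr the ratios were 16.1 in WT (6.70 to 50.7) and 11.3 in S513A (4.58 to 35.9). The change was called in both genotypes at both times, with adjusted p between 0.000289 and 0.00156, and these intervals cover counting error only.

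E2f1, also an activator, dipped and came back. It was at 4.36 and 4.41 log2 CPM in WT without LPS, 4.08 and 3.56 with LPS for 4 hr and 4.95 and 4.90 for 8 hr. Its S513A levels were 4.60 and 4.54, 3.90 and 3.91, and 4.67 and 4.89. The 4 hr libraries were the lowest and the 8 hr libraries the highest in each genotype. The rise from 4 to 8 hr was 1.11 ± 0.16 in WT and 0.87 ± 0.16 in S513A on the log2 scale (adjusted p = 0.00181 and 0.00555). The fall at 4 hr was called in WT (-0.57, adjusted p = 0.0166) and S513A (-0.66, adjusted p = 0.00685). The WT call was lost in a model of only the libraries compared (adjusted p = 0.082). It was also lost without either WT 0 hr library (changes of -0.59 and -0.54) or WT 4 hr replicate 2 (-0.305). Leaving out WT 4 hr replicate 2 and S513A 8 hr replicate 1 together ended it as well (-0.305).

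E2f8, an E2F without a transactivation domain that represses E2F targets, was at 2.79 and 2.42 log2 CPM in WT at 0 hr, 3.32 and 3.86 with 4 hr of LPS, then 3.20 and 3.16 with 8 hr. The S513A values were 2.23 and 2.37, 3.80 and 3.43, and 3.89 and 3.35. No library with LPS was as low as one without it. The log2 change at 4 hr was 0.99 ± 0.24 in WT (adjusted p = 0.0073) and 1.31 ± 0.24 in S513A (adjusted p = 0.00122). Without WT 0 hr replicate 2 or WT 4 hr replicate 2 the WT call was lost (adjusted p = 0.0673 and 0.0537). The S513A libraries kept a change of 1.32 at 8 hr (adjusted p = 0.00146), and the WT change of 0.57 did not pass (adjusted p = 0.0907), though it did in a model of only the libraries compared (adjusted p = 0.0253).

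**Figure D3:**
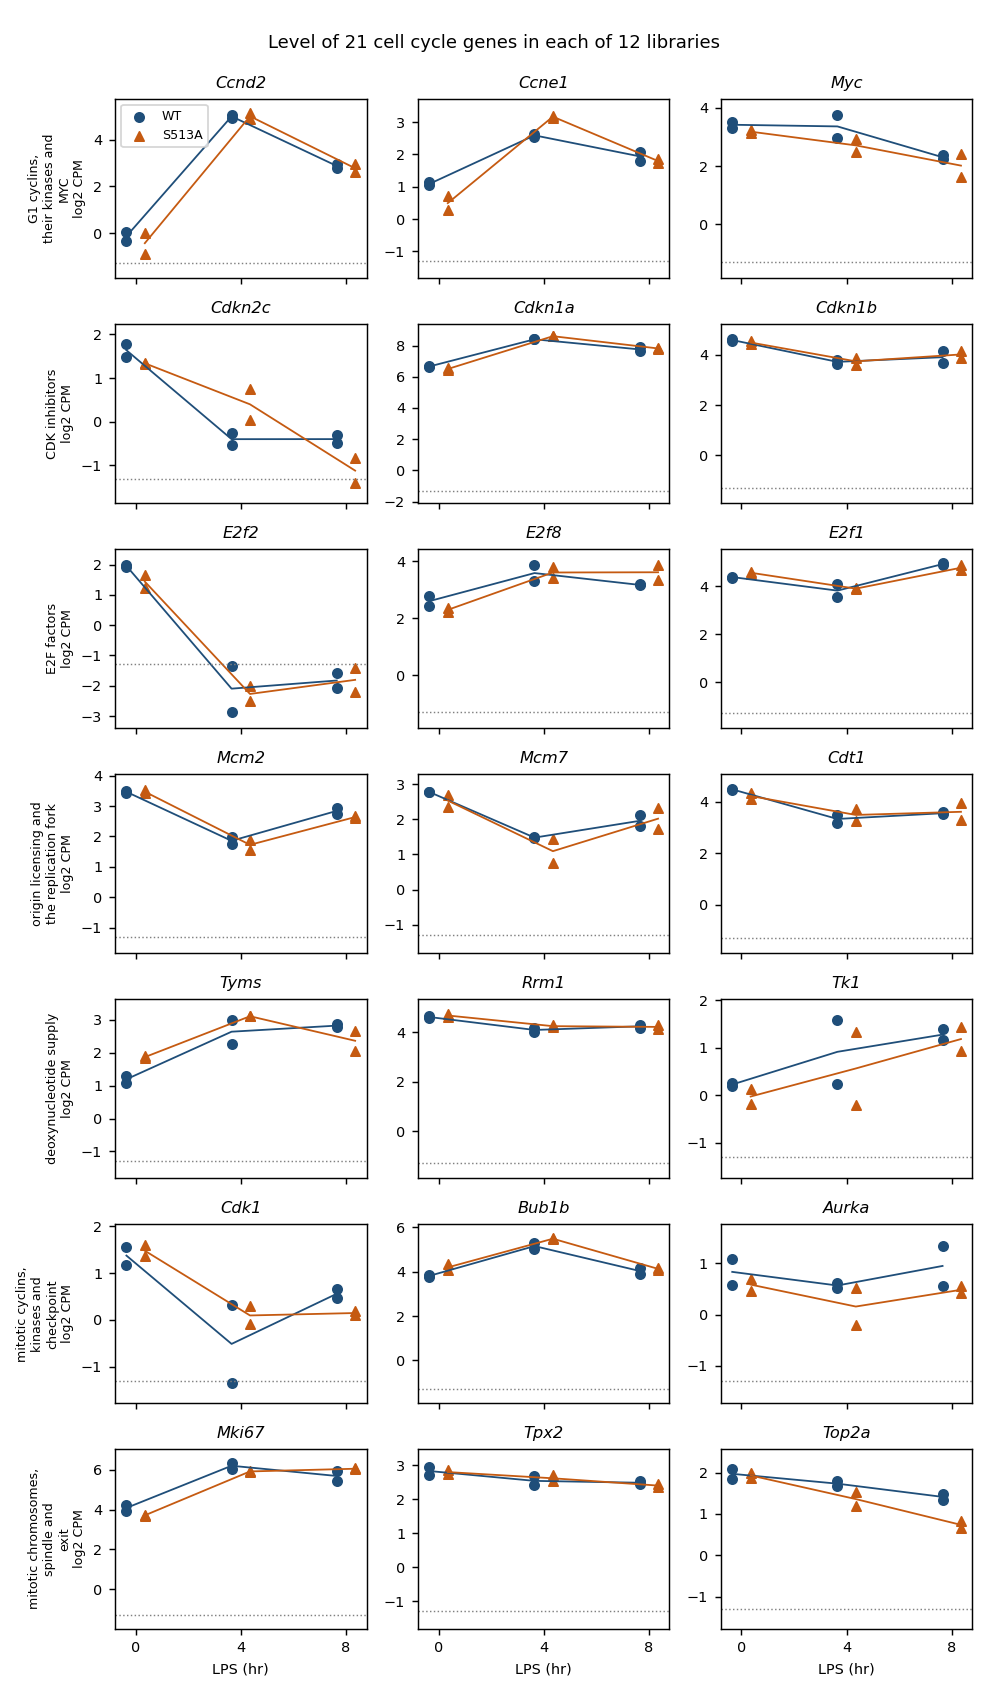
Level of 21 cell cycle genes in log2 CPM (y axis, scaled per gene) against time with LPS in hr (x axis), 3 genes per role in each row; points are libraries, lines join the mean of 2 libraries, blue circles are WT, orange triangles S513A, and the dotted line marks the highest level that 3 reads correspond to. Ccnd2, Ccne1, Cdkn1a, Bub1b and Mki67 peak or plateau at 4 hr while E2f2 is under the dotted line in all 8 libraries with LPS.

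The MCM2 to MCM7 proteins form 1 helicase ring, yet their transcripts did not move together. At 4 hr Mcm2 and Mcm7 fell in both genotypes, Mcm5 rose in both, Mcm3 fell in WT alone, and Mcm4 and Mcm6 did not pass in either. Mcm2 (Entrez 17216) was at 3.49 and 3.44 log2 CPM in WT at 0 hr, 1.97 and 1.75 after 4 hr of LPS, and 2.93 and 2.75 after 8 hr. Its levels in S513A were 3.43 and 3.52, 1.88 and 1.57, and 2.66 and 2.61. The levels at 4 hr were below those at 8 hr, and these below those at 0 hr, in all libraries. Mcm2 fell by 1.61 ± 0.17 in WT and by 1.75 ± 0.17 in S513A on the log2 scale at 4 hr (adjusted p = 2.66e-05 and 1.35e-05), and rose by 0.98 and 0.91 from 4 to 8 hr (adjusted p = 0.00443 and 0.00586). The call on this rise was lost without WT 8 hr replicate 1 in WT (0.89, adjusted p = 0.051) and, in S513A, without S513A 4 hr replicate 2 (0.75, adjusted p = 0.055) or in a model of only the libraries compared (0.91, adjusted p = 0.0773). The WT call at 8 hr against 0 hr was lost without either WT 0 hr library or WT 8 hr replicate 2 (changes of -0.65 to -0.53, adjusted p = 0.0659 to 0.117).

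Mcm7 (Entrez 17220) was at 2.76 and 2.78 log2 CPM in WT without LPS, 1.47 and 1.49 with LPS for 4 hr and 2.11 and 1.80 for 8 hr. The same times in S513A gave 2.36 and 2.70, 1.44 and 0.75, and 2.31 and 1.72. The 0 hr libraries were the highest and the 4 hr libraries the lowest in each genotype. At 4 hr it fell by 1.29 ± 0.28 in WT and by 1.44 ± 0.28 in S513A on the log2 scale (adjusted p = 0.00353 and 0.00175). Mcm5 (Entrez 17218) lay between 2.91 and 3.01 log2 CPM in the 4 libraries at 0 hr and between 3.38 and 3.60 at 4 hr, with changes of 0.54 and 0.57 (adjusted p = 0.0123 and 0.00874). At 8 hr it was between 3.03 and 3.27. Mcm4 and Mcm6 changed by -0.14 to 0.13 on the log2 scale at 4 hr.

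Cdt1, the loader of the MCM ring, was at 4.49 and 4.47 log2 CPM in WT at 0 hr, 3.16 and 3.50 with 4 hr of LPS, then 3.52 and 3.59 with 8 hr. Its levels in S513A were 4.33 and 4.11, 3.72 and 3.26, and 3.94 and 3.28. The 0 hr libraries were above the others in each genotype. At 4 hr the log2 change came to -1.15 ± 0.23 in WT (adjusted p = 0.00214) and -0.74 ± 0.23 in S513A (adjusted p = 0.0232), where the call was lost without S513A 0 hr replicate 1, its replicate 2, or replicate 2 of S513A at 4 hr (changes of -0.63, -0.84 and -0.51, adjusted p = 0.0526 to 0.166). Pcna, the sliding clamp of the replication fork, was the most abundant of the 10 replication genes per kb of transcript and did not pass at 4 hr in either genotype (-0.25 in both). At 8 hr it was lower in S513A (-0.70, adjusted p = 0.0166) and at 0.01 in WT. Processed copies named Pcna-ps1, Pcna-ps2, Tyms-ps and Ccnd3-ps are annotated in the genome, and how reads shared with them were assigned is not known here. Gins2 did not pass in any of the 6 LPS comparisons, and 67.3% of its exon bases overlap Gse1.

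Of the enzymes that supply deoxynucleotides, Tyms rose and Rrm1 fell. Tyms (Entrez 22171), which makes thymidylate, was at 1.31 and 1.08 log2 CPM in WT at 0 hr, 3.01 and 2.27 after 4 hr of LPS, and 2.88 and 2.77 after 8 hr. S513A gave 1.90 and 1.83, 3.11 and 3.11, and 2.06 and 2.66. Every library with LPS was above every library without. By 4 hr the log2 change was 1.45 ± 0.26 in WT (adjusted p = 0.00127) and 1.24 ± 0.26 in S513A (adjusted p = 0.0031). By 8 hr the change was 1.63 in WT (adjusted p = 0.000744) and 0.50 in S513A (adjusted p = 0.158).

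Rrm1, the large subunit of ribonucleotide reductase, was at 4.65 and 4.57 log2 CPM in WT without LPS, 4.16 and 4.01 with LPS for 4 hr and 4.16 and 4.31 for 8 hr. The S513A libraries gave 4.61 and 4.74, 4.20 and 4.28, and 4.14 and 4.28. The 0 hr libraries were the 4 highest of the 12. Rrm1 fell by 0.52 ± 0.12 in WT and by 0.43 ± 0.12 in S513A on the log2 scale at 4 hr (adjusted p = 0.00587 and 0.0157). The S513A call was lost without S513A 0 hr replicate 2 or S513A 4 hr replicate 1 (adjusted p = 0.108 and 0.0782), and the WT call in a model of only the libraries compared (adjusted p = 0.0531). At 8 hr the WT call was lost when any 1 of the libraries of WT at 0 or 8 hr or of S513A at 0 hr was left out (changes of -0.45 to -0.30, adjusted p = 0.0522 to 0.191), and the S513A call without S513A 8 hr replicate 1 or S513A 0 hr replicate 2 (adjusted p = 0.0926 and 0.0934). Rrm2, the small subunit that limits the enzyme in S phase, had 3 to 18 reads per library and was called only at 4 hr in S513A, with 29 reads becoming 8 (a ratio of 2.92, counting interval 1.30 to 7.39, adjusted p = 0.0383). Tk1, the salvage enzyme thymidine kinase, was at 0.20 and 0.25 log2 CPM in WT at 0 hr, 0.25 and 1.58 with 4 hr of LPS, then 1.38 and 1.16 with 8 hr. Its S513A values were 0.13 and -0.18, 1.33 and -0.20, and 1.44 and 0.92. The replicates at 4 hr were far apart and overlapped with 0 hr in both genotypes, while all libraries at 8 hr were above those at 0 hr. No comparison passed (changes at 8 hr of 1.05 in WT and 1.21 in S513A, adjusted p = 0.15 and 0.0925), though a model of only the libraries compared called both (adjusted p = 0.0192 and 0.0394).

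Among the mitotic kinases and checkpoint genes, Cdk1 and Bub1b moved in opposite directions. Cdk1 (Entrez 12534), the kinase that drives entry into mitosis, was at 1.18 and 1.57 log2 CPM in WT at 0 hr, -1.34 and 0.31 after 4 hr of LPS, and 0.46 and 0.65 after 8 hr. In S513A the levels were 1.60 and 1.36, -0.10 and 0.29, and 0.11 and 0.18. These are 30 to 38 reads per library at 0 hr and 4 to 16 with LPS, without overlap. Cdk1 fell by 1.89 ± 0.47 in WT and by 1.38 ± 0.47 in S513A on the log2 scale at 4 hr (adjusted p = 0.00806 and 0.0342). The WT call was lost without WT 0 hr replicate 2 (adjusted p = 0.0611), and the S513A call without any of the 4 S513A libraries at 0 and 4 hr or with quantile normalization (adjusted p = 0.0647 to 0.15). The 8 hr change was -0.82 in WT (adjusted p = 0.203, or 0.0477 in a model of only the libraries compared) and -1.33 in S513A (adjusted p = 0.0432), and the latter call was lost under 10 of the alternatives (adjusted p = 0.0504 to 0.176).

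Bub1b (Entrez 12236), which encodes the spindle checkpoint protein BUBR1, was at 3.85 and 3.78 log2 CPM in WT without LPS, 5.30 and 5.02 with LPS for 4 hr and 4.17 and 3.90 for 8 hr. Its S513A levels were 4.06 and 4.33, 5.51 and 5.47, and 4.10 and 4.16. The 4 libraries at 4 hr stood above the other 8, among which those at 0 and 8 hr overlapped. The log2 change at 4 hr was 1.34 ± 0.15 in WT (2.54-fold, adjusted p = 3.26e-05) and 1.29 ± 0.15 in S513A (2.45-fold, adjusted p = 4.17e-05). From 4 to 8 hr it fell by 1.12 and 1.36 on the log2 scale (adjusted p = 0.00102 and 0.000371). Bub1, its paralogue and partner in the same checkpoint, had 2 to 16 reads per group of 2 libraries. Aurka, the kinase of spindle poles, lay between -0.20 and 1.33 log2 CPM, its libraries at 0, 4 and 8 hr overlapped within each genotype, and no LPS comparison passed. Its WT libraries were at 0.58 and 1.08 at 0 hr, 0.62 and 0.51 with 4 hr of LPS, then 1.33 and 0.56 with 8 hr, and its S513A libraries at 0.70 and 0.47, 0.51 and -0.20, and 0.42 and 0.55.

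Mki67 (Entrez 17345), which encodes the chromosome coat protein Ki-67 that is read as a proliferation marker, was at 4.22 and 3.95 log2 CPM in WT at 0 hr, 6.06 and 6.36 after 4 hr of LPS, and 5.93 and 5.46 after 8 hr. Its levels in S513A were 3.73 and 3.70, 5.96 and 5.89, and 6.08 and 6.03. All 8 libraries with LPS were above the 4 without. At 4 hr the log2 change came to 2.12 ± 0.16 in WT (4.35-fold, adjusted p = 2.42e-06) and 2.21 ± 0.16 in S513A (4.62-fold, adjusted p = 1.64e-06). By 8 hr the change was 1.61 in WT (adjusted p = 2.49e-05) and 2.34 in S513A (adjusted p = 1.43e-06). GENCODE M21 places no exon of another gene over the exons of Mki67 or Bub1b.

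The other genes of mitotic chromosomes and the spindle were not called higher with LPS as Mki67 was. Of the 7 tested in this role, Mki67 was the 1 gene called higher in any LPS comparison. Top2a, the topoisomerase that untangles sister chromatids, was at 1.84 and 2.09 log2 CPM in WT without LPS, 1.80 and 1.67 with LPS for 4 hr and 1.33 and 1.49 for 8 hr. Its S513A values were 1.86 and 1.99, 1.54 and 1.18, and 0.82 and 0.65. The 8 hr libraries were the lowest of each genotype, and the change at 8 hr passed in S513A (-1.19, adjusted p = 0.0018) and not in WT (-0.56, adjusted p = 0.0789). Tpx2, which activates Aurora A on the spindle, was at 2.70 and 2.97, 2.41 and 2.68, and 2.45 and 2.53 log2 CPM in WT at 0, 4 and 8 hr. The same times in S513A gave 2.75 and 2.86, 2.53 and 2.71, and 2.36 and 2.45, and no comparison passed (changes against 0 hr of -0.40 to -0.18). Cenpe, a kinetochore motor, was lower at 8 hr in S513A (-1.02, adjusted p = 0.0414). Kif20a, Nusap1 and Prc1, which act on the central spindle or bundle microtubules, did not pass at any time. The exons of Kif20a overlap those of Cdc23 over 29.3% of their length. Nusap1 had 2 to 14 reads per library. In WT its 11 reads at 0 hr became 23 at 4 hr, a ratio of 2.57 with a counting interval of 1.20 to 5.84. In S513A 10 reads became 15, a ratio of 1.86 (0.783 to 4.64). These intervals cover counting error only.

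The other 10 genes with values were below the filter: Ccne2, Cdc6, Ccna2, Ccnb1, Ccnb2, Plk1, Bub1, Birc5, Kif11 and Cdc20. They include the cyclins A2, B1 and B2 and the kinase PLK1, without which a cell does not pass through G2 and mitosis. Each had 0 to 12 reads in a library, and 38 of the 120 values were at or under 3 reads. Summed, the 10 genes had 144, 96 and 104 reads over both WT libraries at 0, 4 and 8 hr, and 106, 80 and 90 in S513A. These sums were not scaled to library size. The scaled sizes of the WT libraries were 1.30e+07 to 1.44e+07 at 0 hr and 1.05e+07 to 1.14e+07 with LPS, so that a lower sum is in part lower depth. Per library the sums were 50 to 75 at 0 hr, 20 to 60 at 4 hr and 42 to 56 at 8 hr, so that the times overlapped. In a limma fit without the filter, 0 of these genes were called over 12 comparisons, 3 values had an unadjusted p under 0.05, and the smallest adjusted p was 0.091 (Ccnb1 at 8 hr in S513A). At this depth neither small nor larger changes in these genes could be resolved. In that fit Bub1 changed by -2.20 on the log2 scale at 4 hr in WT (adjusted p = 0.155). Ccnb2 changed by 1.58 at 8 hr in S513A (adjusted p = 0.225).

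Levels can be set beside each other per kb of transcript. Among the 19 mitosis genes with values, Mki67 was at a mean of 1.70 CPM per kb in WT at 0 hr and 7.40 at 4 hr, and Bub1b at 3.83 and 9.77. Cdk1 was at 0.597 and 0.187, Top2a at 0.753 and 0.637, Ccnb1 at 0.249 and 0.29, and Plk1 at 0.273 and 0.205. In S513A Cdk1 and Top2a were again lower at 4 hr. Ccnb1 (0.328, then 0.144) and Plk1 (0.137, then 0.2115) went the opposite way there, on few reads. Summed CPM over the 10 genes of mitotic chromosomes and spindle was 30.3 to 36.2 at 0 hr and 74.4 to 99.2 at 4 hr, with Mki67 the most abundant of the 10 in CPM in every library. The rise of this sum lay in Mki67. That gene alone had a mean of 17.1 CPM at 0 hr and 74.4 at 4 hr in WT, and of 13.1 and 60.7 in S513A.

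**Figure D4:**
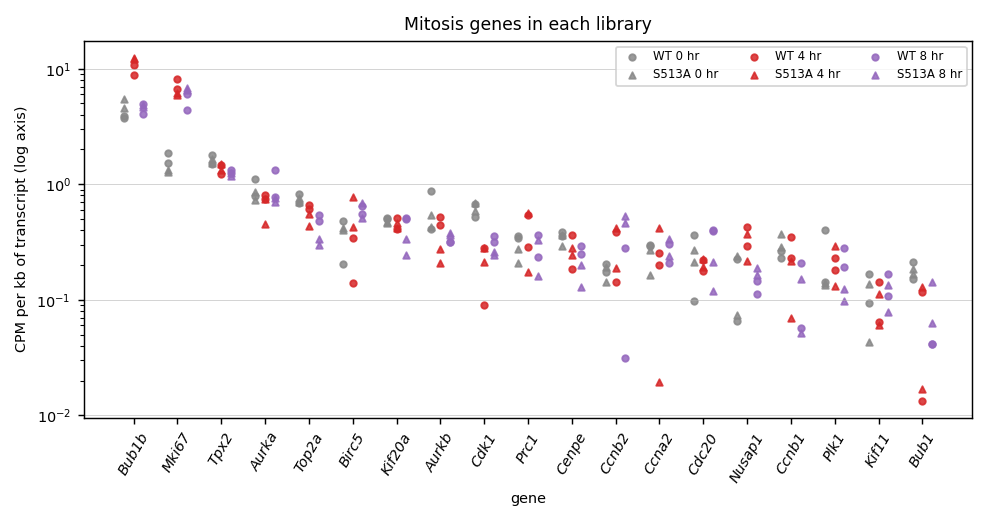
CPM per kb of transcript (y axis, log scale) of the 19 mitosis genes with values, ordered by mean level, in each of 12 libraries; grey points are 0 hr, red 4 hr and purple 8 hr, circles WT and triangles S513A. Bub1b and Mki67 stand above the other 17 genes at 4 hr, and the 8 untested genes have 0 to 12 reads per library.

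No cell cycle gene was called between S513A and WT at any time. With limma, 0 of 37 passed at 0, 4 and 8 hr, against 0.0337%, 0.0168% and 0.0337% of all genes. In the average over the 3 times 0 passed as well, against 0.0673% of all genes. At an unadjusted p under 0.05 there were 4, 4, 3 and 3 of the 37 in these comparisons, that is 10.8%, 10.8%, 8.11% and 8.11%, against 7.98%, 7.01%, 12.5% and 6.71% of all genes. The limma-voom fit on reads recovered from the values also called 0 in each. The smallest adjusted p among the 37 genes was 0.586, 0.622, 0.395 and 0.562. With the 4 libraries at 0 hr fitted alone, Pcna was called higher in S513A (0.36 on the log2 scale, adjusted p = 0.0457), where the fit of all 12 libraries gave 0.586.

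At 0, 4 and 8 hr, the 95% confidence interval of the S513A to WT difference lay within 1 log2 unit on either side of 0 for 25, 23 and 23 of the 37 genes. Mki67 was 0.37 lower in S513A at 0 hr (interval -0.74 to -0.01) and 0.36 higher at 8 hr (0.00 to 0.73) on the log2 scale, with adjusted p of 0.586 and 0.398. Ccne1 was 0.60 lower in S513A at 0 hr (-1.06 to -0.13) and 0.58 higher at 4 hr (0.11 to 1.05), with adjusted p of 0.586 and 0.622. Bub1b was higher in S513A by 0.27 on average over the 3 times (0.08 to 0.46, adjusted p = 0.562), without overlap of the libraries at 0 and at 4 hr.

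The LPS response itself was compared between the genotypes by an interaction term, and 0 of 37 genes passed at 4 hr and 0 at 8 hr, where 0% of all genes were called as well. That share of all genes rested on 1 library at 8 hr: without S513A 8 hr replicate 2, 651 of the 11885 genes were called, and still 0 of the 37. At an unadjusted p under 0.05 there were 2 genes at 4 hr and 5 at 8 hr (5.41% and 13.5%, against 1.21% and 20.2% of all genes), and limma-voom called 0. Ccne1 had the lowest p of the 37 genes at 4 hr, with a response 1.17 larger in S513A on the log2 scale (interval 0.51 to 1.83, unadjusted p = 0.00257, adjusted p = 1). At 8 hr the response of Mki67 was 0.74 larger in S513A (0.22 to 1.25, adjusted p = 0.193) and that of Tyms was smaller by 1.13 (interval of the difference -1.96 to -0.31, adjusted p = 0.196). These differences did not hold up against the spread between replicates over the number of genes tested.

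**Figure D5:**
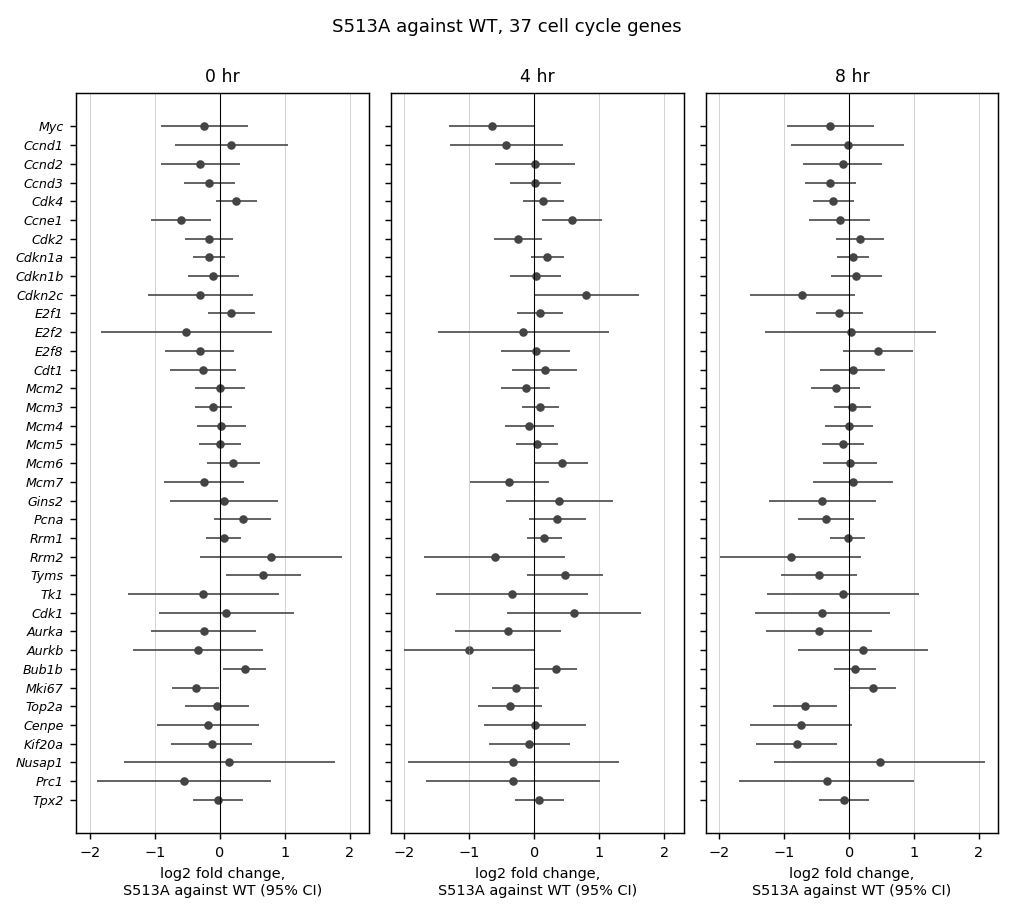
Log2 fold changes between S513A and WT for the 37 tested cell cycle genes (y axis, ordered by role) at 0, 4 and 8 hr, with 95% confidence intervals from limma. At each time the intervals of most genes cross 0, and 0 genes passed an adjusted p of 0.05.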

How the data were processed

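RNA from PECs of 6 groups of 2 libraries was sequenced in paired-end mode. Per the study's methods and the labels, the authors aligned reads with HISAT2 to mm10, counted them per gene without strand with featureCounts 1.6.3, and deposited log2 CPM values. How counts became log2 values, and which genes were filtered, is not given in the sources used here. The deposited log2 values equal the log2 of reads plus 0.5, in CPM of a scaled library size, since reads recovered this way were whole numbers to within 0.00145. Low genes are therefore damped towards 0 change.

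Groups were taken from sample titles. The 11885 genes that reached 1 CPM in 2 or more libraries were fitted with limma 3.58.1 (group means of all 12 libraries, 6 residual degrees of freedom, moderated with a mean trend; R 4.3.3), with Benjamini-Hochberg adjustment over all of them and 12 contrasts. The fit was tested on simulated data. Genes named with every library's value were, per role, the 3 with the largest LPS changes among those called, completed by level. Other genes of the list are given by counts or where a result turns on them. Rows without a gene symbol (112) were not named. Positions and exon overlaps came from GENCODE M21, promoters from RefSeq. The genes and lists were chosen with earlier results of these data known. Alternatives tried were other filters, a pseudocount, other scalings, a flat prior, voom, smaller models, a replicate block, and leaving out libraries.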

Additional observations from a re-analysis of the deposited data

How the results depend on the processing

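Counts of cell cycle genes called kept within 1.5 times of their value under most alternatives. Leaving out 1 library at a time gave 13 to 20 genes at 4 hr against 0 hr in WT, 13 to 19 in S513A, 6 to 16 at 8 hr against 0 hr in WT, 11 to 17 in S513A, 4 to 9 at 8 hr against 4 hr in WT and 5 to 10 in S513A, and 0 in every genotype comparison. The counts over all genes also changed with the library left out. Keeping only genes with a mean of 5 CPM or more gave 10 at 8 hr in S513A, where 22 genes of the list were tested. Over all genes this filter gave 3983 of 9292. A model of only the compared libraries gave 5 between 4 and 8 hr in S513A, where it called 596 of all genes against 2175 with all libraries. Between the genotypes at 0 hr it gave 1 gene (Pcna) and called 693 of all genes against 4. The cause was not tested. For the average over times, that model is the same as the one used. Of 71 calls on the genes chosen per role and given with every library's value, 46 were kept under all alternatives tried (up to 22), 25 were lost under at least 1, and 0 changed direction. Calls named for other genes, namely Mcm3, Mcm5, Ccnd1, Ccnd3, Cdk2, Cdk4, Pcna, Rrm2 and Cenpe, were not followed gene by gene under the alternatives. No label says that shared replicate numbers pair the libraries, and they were not taken to: the correlation of same-numbered deviations was between -0.358 and 0.155 in WT and between -0.119 and 0.76 in S513A (0.76 between 4 and 8 hr), and -0.251, -0.739 and 0.363 between the genotypes at 0, 4 and 8 hr. With a replicate block the counts were 19 and 18 at 4 hr, 16 and 16 at 8 hr, 7 and 8 between 4 and 8 hr in WT and S513A, and 0 between the genotypes. With 2 libraries per group, small changes and genes of few reads, the A and B cyclins among them, could not be resolved. WT 4 hr replicate 2 and S513A 8 hr replicate 1 were left out together as a choice made after seeing the data.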

Other observations

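Other genes of the cycle were read from 3 textbook lists that share no gene with the one above and were also chosen with earlier results of these data known. Of 53 tested S phase and DNA replication genes, 3 (5.66%) were called higher and 19 (35.8%) lower at 4 hr in each genotype, against 22.6% and 18.7% of all genes in WT and 23.1% and 20.2% in S513A, with median log2 changes of -0.41 in WT and -0.38 in S513A. At 8 hr 5 (9.43%) were higher and 7 (13.2%) lower in WT, against 19.4% and 14.9% of all genes, and 2 (3.77%) and 13 (24.5%) in S513A, against 20.9% and 19%. Timeless, a fork protection factor, rose by 2.25 in WT and 2.86 in S513A on the log2 scale at 4 hr (adjusted p = 2.96e-05 and 4.48e-06), and Pola2, a subunit of DNA polymerase alpha, by 1.29 and 1.30. Gmnn, the inhibitor of Cdt1, fell by 2.01 and 1.68 (adjusted p = 4.70e-05 and 0.000166), and Brca1, a DNA repair gene, fell by 1.93 and 2.19.

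Of 40 tested G2 and mitosis genes, 3 (7.5%) were higher and 12 (30%) lower at 4 hr in WT, against 22.6% and 18.7% of all genes, and 4 (10%) and 10 (25%) in S513A, against 23.1% and 20.2%. The medians were -0.51 and -0.58. Mad2l1, which works beside Bub1b in the spindle checkpoint, rose by 1.74 in both genotypes (adjusted p = 7.43e-05 and 7.15e-05). Cenpa, the centromeric histone, fell by 3.41 and 2.82 (adjusted p = 0.00121 and 0.00373), and Cdc25b, a phosphatase that activates CDK1, fell by 2.59 and 2.90. At 8 hr the medians were -0.55 and -0.72.

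Of 40 tested genes of the G1, E2F and MYC network and of arrest, 15 (37.5%) were higher and 8 (20%) lower at 4 hr in WT, against 22.6% and 18.7% of all genes, and 14 (35%) and 9 (22.5%) in S513A, against 23.1% and 20.2%, so that the shares called lower were near those of all genes. Mycl, a MYC paralogue, rose by 3.63 and 5.65 (adjusted p = 0.0018 and 7.98e-05), and Gadd45b, a stress gene, by 1.77 and 1.81. The MYC antagonist gene Mxd4 fell by 2.47 and 2.69, and Tfdp2, an E2F partner, fell by 2.37 and 2.22. At 8 hr Cdkn2b, which encodes the CDK inhibitor p15, was higher by 2.00 and 1.27 (adjusted p = 0.0012 and 0.0146). Between the genotypes 0 genes of the 3 lists were called at 0, 4 or 8 hr by limma, while at an unadjusted p under 0.05 there were 2, 4 and 4 of the 53 S phase genes, 0, 1 and 4 of the 40 mitosis genes, and 3, 7 and 3 of the 40 genes of the third list, against 7.98%, 7.01% and 12.5% of all genes.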
